A study of Schizosaccharomyces pombe with 88 samples.

Results

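The genes described here are the core histone genes of fission yeast, Schizosaccharomyces pombe, together with ams2. They were taken by gene symbol or synonym from the platform annotation, which gave 10 genes of the 4927 measured. They are hta1 and hta2 (histone H2A), htb1 (H2B), hht1, hht2 and hht3 (H3), hhf1, hhf2 and hhf3 (H4), and ams2, which encodes a GATA-type zinc finger factor that activates histone genes. All 10 genes had 2 probes each and a value on every array.

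Core histones package newly made DNA, so their genes are transcribed in a burst at S phase, when the genome is copied, and are shut off again when replication ends. In fission yeast Ams2 accumulates at S phase and binds the promoters of core histone genes. The ams2 gene is itself driven by MBF, the transcription factor complex of the G1/S transition. In a replication block the checkpoint kinases Rad3 and Cds1 keep MBF active, and histone messages are also known to depend on ongoing DNA synthesis in many eukaryotes.

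Most histone genes of this yeast sit in divergent pairs. The RefSeq gene table of assembly ASM294v3 places hta1 (SPOM_SPCC622.08C) next to htb1 (SPOM_SPCC622.09) on chromosome III. It places hhf1 (SPOM_SPAC1834.03C) next to hht1 (SPOM_SPAC1834.04) on chromosome I. On chromosome II, hhf2 (SPOM_SPBC8D2.03C) is next to hht2 (SPOM_SPBC8D2.04), and hht3 (SPOM_SPBC1105.11C) is next to hhf3 (SPOM_SPBC1105.12). The second H2A gene, hta2 (SPOM_SPAC19G12.06C), stands alone on chromosome I, and ams2 (SPOM_SPCC290.04) is on chromosome III. Copies of one histone are near-identical in sequence, so their probes may share signal and values of single copies are uncertain to that extent. Probe sequences were not used here.

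Cultures of wild type (WT) and of strains mutated in rad3 (the ATR-family checkpoint kinase), cds1 (effector kinase of the replication checkpoint) or chk1 (effector kinase of the DNA damage checkpoint) were grown at 30 degrees and made synchronous by elutriation, which collects small early-G2 cells. Total RNA was taken at the start (0 min) and at 40, 80, 120, 160 and 200 min, either untreated or with 8 mM hydroxyurea (HU), which inhibits ribonucleotide reductase and so stalls replication. Each of the 44 conditions was hybridised on 2 arrays, and every value is a log2 ratio (Cy5 over Cy3) against RNA of asynchronous, untreated, mid-log WT cells. A value of 0 therefore means the level of the asynchronous population, and ratios of different genes cannot be set against each other as levels. The labels were read as 1 culture per strain and arm, so strains were taken as the replicates of a time point. Whether the 2 arrays of a condition came from the same culture was not tested. The p-values thus cover no more than the spread among these cultures and arrays, which may be technical, and a strain cannot be told apart from its culture or array batch. The mutant alleles are not named in the labels. In RNA from a whole culture, more cells in S phase and more message per S-phase cell cannot be told apart.

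The mutated genes were examined first. The rad3 gene had a median log2 ratio of -2.64 on the 22 rad3 arrays against -0.47 in WT, and the cds1 gene -2.92 on the cds1 arrays against 0.36 in WT. The chk1 gene was only partly lower, with a median of -1.18 on the chk1 arrays against -0.28 in WT, and the ranges of the strains overlapped (-1.61 to -0.24 and -1.09 to 0.28). Of the chk1 arrays, 6 matched the WT array of the same condition (r of 0.926 to 1 over probes, against at most 0.733 in other conditions after the start). They were chk1 untreated at 120 min and chk1 with HU at 120 and 200 min, and these 3 conditions were left out, which leaves 41. The chk1 culture with HU at 160 min was used, but its chk1 gene lay at -0.53 on both arrays, above WT with HU at that time (-0.83), and 76.9% of the values of its 2 arrays were equal. The main results of the members at 160 min that rest on it are therefore also given without the chk1 strain. Those of genes outside the members are not. The repeat arrays of a condition differed for the members by a median of 0.44 (WT), 0.207 (rad3), 0.039 (cds1) and 0.014 (chk1).

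**Figure D1:**
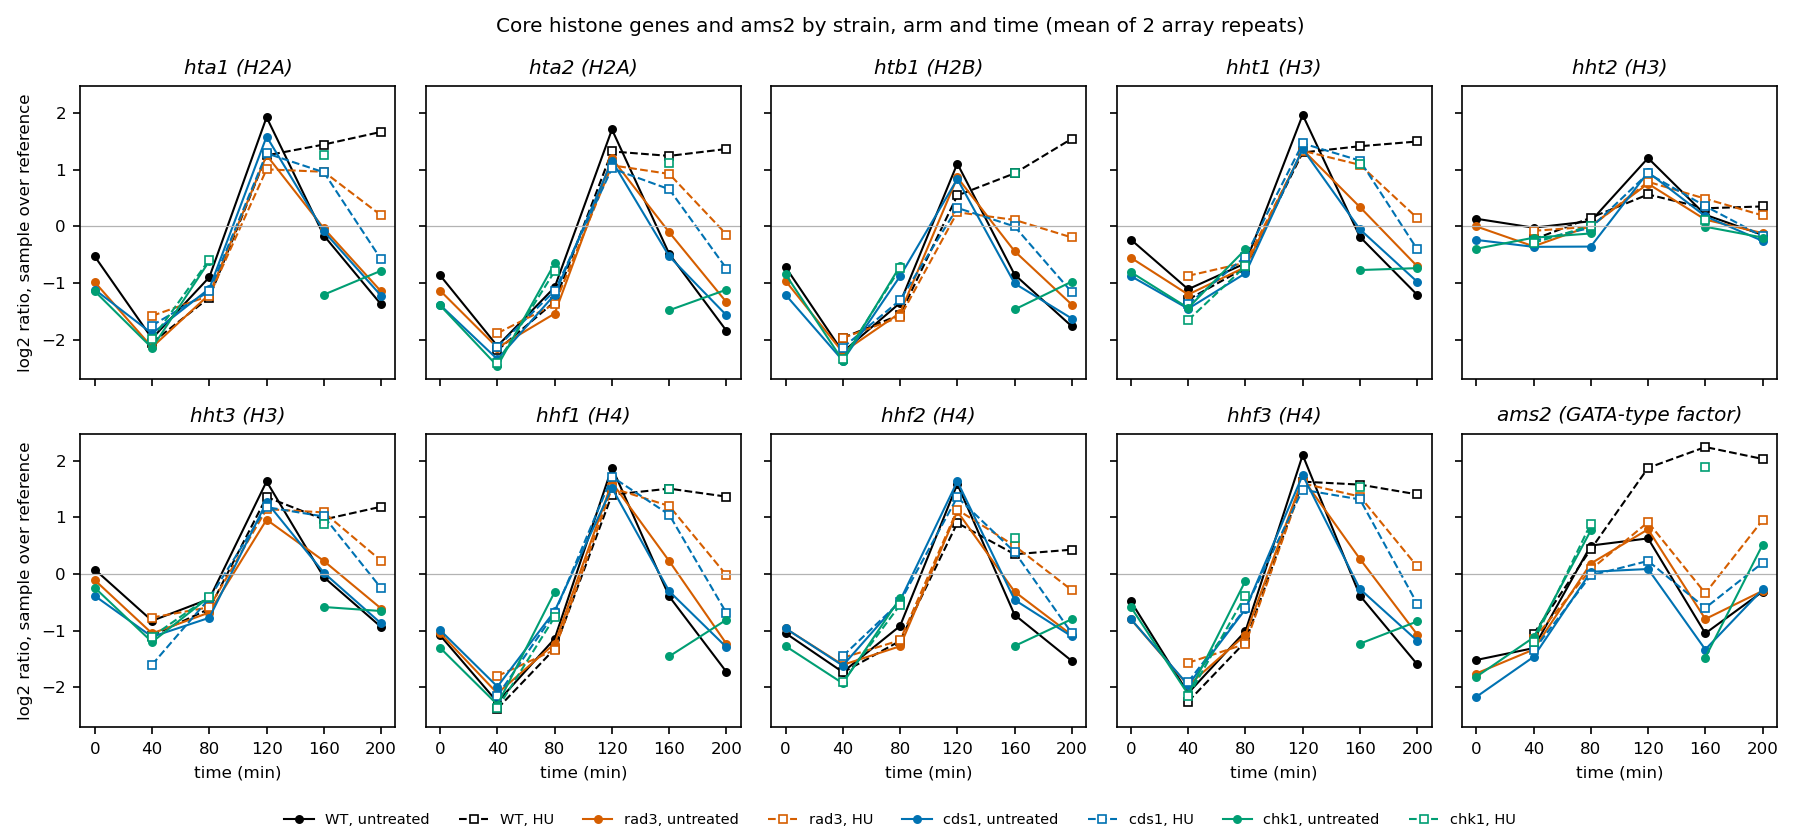
Log2 ratio over the asynchronous reference (vertical axis) against time in min (horizontal axis) for each of the 10 genes. Points are means of 2 arrays, colours are strains, filled circles and solid lines are untreated and open squares and dashed lines are HU. Lines are broken at the 3 chk1 conditions that were left out. The untreated histone genes peaked at 120 min in WT, rad3 and cds1, and in WT with HU hta1 was at 1.25, 1.44 and 1.67 at 120, 160 and 200 min.

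In untreated cells the 9 histone genes shared one wave with its peak at 120 min. For hta1 the lowest level came at 40 min, with -1.98 (WT), -2.14 (rad3), -1.89 (cds1) and -2.15 (chk1). At 80 min it was -0.90, -1.20, -1.10 and -0.61 in the same order, and at 120 min it reached 1.93 in WT, 1.26 in rad3 and 1.58 in cds1. The strains did not overlap between these times. By 160 min hta1 was back at -0.16, -0.04 and -0.09 in WT, rad3 and cds1, with chk1 lower at -1.21, and by 200 min it lay between -1.38 in WT and -0.78 in chk1.

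Every member varied over the 6 times (limma moderated F test, 10 of 10 with adjusted p under 0.05), but so did 78.8% of all genes, and the size of the wave says more than the call. From 40 to 120 min the mean over strains rose by 3.88 for hhf3, 3.84 for hhf1, 3.63 for hta1, 3.62 for hta2, 3.23 for htb1, 3.16 for hhf2, 2.87 for hht1 and 2.33 for hht3, on the log2 scale. Among these 8 the H3 genes had the smallest swings. The H3 copy hht2 stood apart with a rise of 1.21. Its mean was -0.23 ± 0.16 (SD, n = 4 strains) at 40 min, -0.10 ± 0.20 at 80 min, 0.97 ± 0.23 (n = 3) at 120 min and 0.12 ± 0.09 (n = 4) at 160 min. Its adjacent H4 gene hhf2 went from -1.72 ± 0.15 (n = 4) to 1.44 ± 0.29 (n = 3) between 40 and 120 min, so members of one divergent pair differed in swing. The probes of hht2 agreed less well than those of other members (r of 0.864 over 88 arrays, against 0.950 to 0.990), and the part of this in the smaller swing was not tested.

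The steps of the wave were tested in turn by limma over the strains, with p-values adjusted over all genes. Between 0 and 40 min 8 of 9 histone genes fell, by 0.66 (hhf2) to 1.37 (hhf3), while hht2 differed by -0.11 ± 0.09 (SE, adjusted p = 0.32). This interval changed 67.7% of all genes (30.2% fell), and the arrays of 0 min had a wider spread over probes (SD 0.772 to 0.944) than later ones (0.342 to 0.709), so the fall is not particular to histone genes. Between 40 and 80 min 7 of 9 rose, against 4.34% of all genes, by 0.65 (hht1) to 1.33 (hhf1 and hhf3). The remaining copies, both H3, gave 0.14 ± 0.09 (hht2, adjusted p = 0.41) and 0.47 ± 0.15 (hht3, adjusted p = 0.055). With quantile normalization between arrays 3 of 9 rose in this early step.

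The main rise came between 80 and 120 min, when 9 of 9 histone genes rose against 5.05% of all genes. The median rise was 2.19 on the log2 scale, while the median over all genes was -0.01. The smallest was that of hht2 (1.04 ± 0.10, adjusted p = 2.3e-06) and the largest that of hhf3 (2.56 ± 0.26, adjusted p = 3.7e-06), and hta1 rose by 2.51 ± 0.23 (5.70-fold, adjusted p = 1.1e-06). Between 120 and 160 min all 9 fell again, against 3.09% of all genes, from -0.82 ± 0.10 (hht2) to -2.25 ± 0.26 (hhf3). Between 160 and 200 min 4 of 9 fell further, against 1.40% of all genes. These were hta1 (-0.76 ± 0.21, adjusted p = 0.038), hta2 (-0.82 ± 0.23), hht1 (-0.74 ± 0.18) and hht3 (-0.67 ± 0.15). This late count hung on single cultures, with 0 without WT, 1 without rad3, 0 without cds1 and 8 without chk1.

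The activator gene ams2 moved ahead of its targets. At 40 min it was -1.31 (WT), -1.33 (rad3), -1.46 (cds1) and -1.12 (chk1). At 80 min it had reached 0.50, 0.19, 0.04 and 0.77 in the same order. The histone genes other than hht2 were then still below the reference in every strain. The strain means of hht2 ran from -0.36 to 0.09. The step of ams2 from 40 to 80 min was 1.68 ± 0.17 (3.21-fold, adjusted p = 1.2e-06), and that from 80 to 120 min 0.19 ± 0.18 (adjusted p = 0.55). On average over strains most of its rise thus preceded the steepest step of the histone genes. At 120 min ams2 was 0.63 in WT, 0.79 in rad3 and 0.09 in cds1, so in rad3 part of its rise came with that step. It fell by 1.72 ± 0.18 between 120 and 160 min (adjusted p = 5.1e-06). Between 160 and 200 min, when 4 histone genes fell, ams2 rose again by 1.07 ± 0.17 (adjusted p = 0.00043, against 4.16% of all genes), to -0.31 (WT), -0.30 (rad3), -0.27 (cds1) and 0.52 (chk1). Unlike 8 of the 9 histone genes it did not fall from 0 to 40 min but rose by 0.51 ± 0.17 (adjusted p = 0.011, against 37.6% of all genes), a call lost without cds1 (adjusted p = 0.077) and with quantile normalization, where the step was 0.13.

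**Figure D2:**
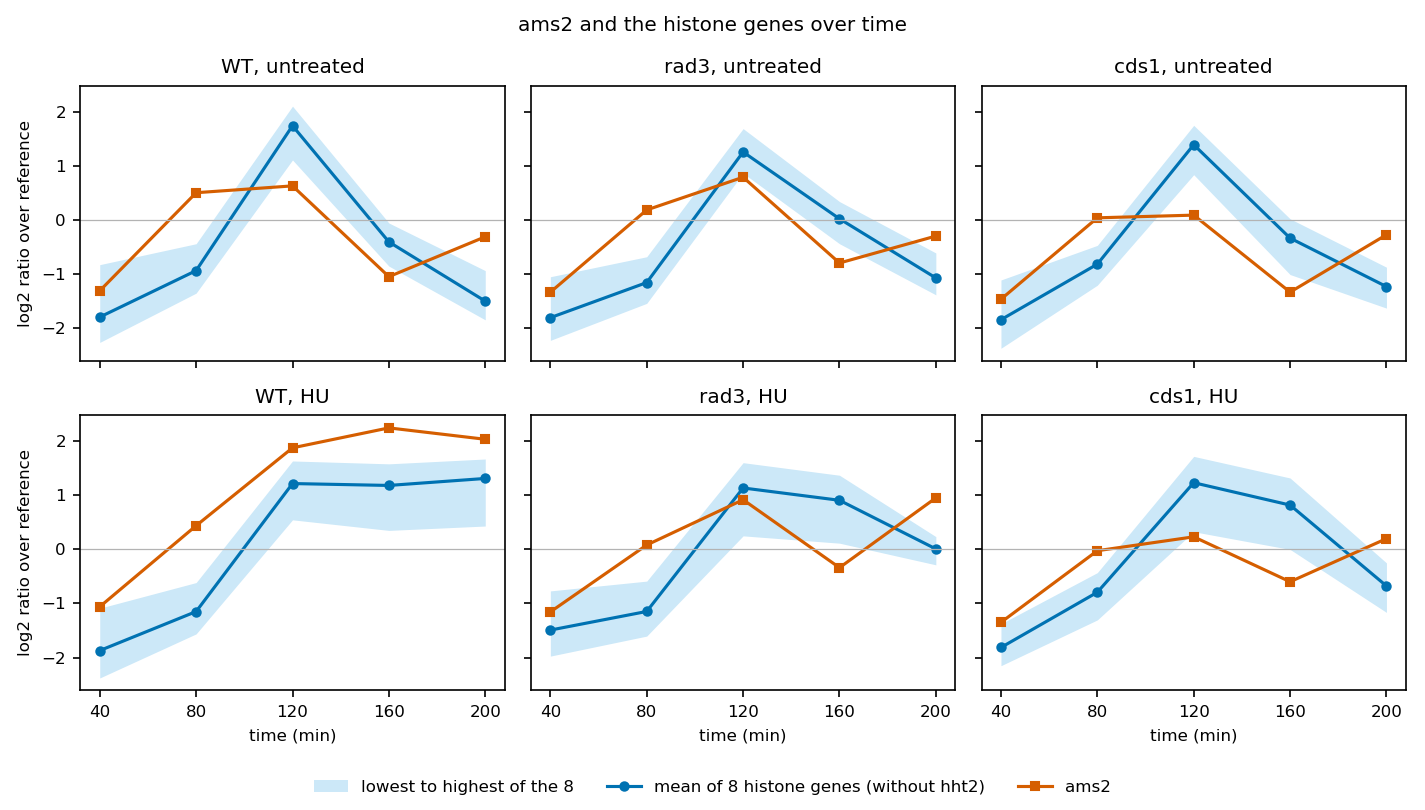
Log2 ratio over the reference (vertical axis) against time in min (horizontal axis) in WT, rad3 and cds1, untreated (top) and with HU (bottom). Orange squares are ams2, blue circles the mean of 8 histone genes without hht2, and the band runs from the lowest to the highest of the 8. Untreated ams2 was near its highest value at 80 min in WT and cds1, while in rad3 it went on to 0.79 at 120 min. The untreated histone mean peaked at 120 min. In WT with HU the histone mean was 1.21, 1.18 and 1.31 at 120, 160 and 200 min.

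The other genes of the same pathway were counted in lists. Of 13 other MBF targets measured, 13 rose between 40 and 80 min (median 2.01), led by cdc22 (2.86), which encodes the large subunit of ribonucleotide reductase, dut1 (2.45), the dUTPase, and the replication licensing genes cdt1 (2.41) and cdc18 (2.35). From 80 to 120 min 2 of them rose (tos4, 1.11, and dut1, 0.95), and from 120 to 160 min all 13 fell. The course of ams2 followed this list in timing, with smaller steps than its leading genes. Of 8 regulators of histone genes, dfp1, the regulatory subunit of the replication kinase Hsk1, rose between 40 and 80 min (0.42 ± 0.08, adjusted p = 0.0018). The F-box gene pof3, whose product takes part in the turnover of Ams2, fell between 80 and 120 min (-0.43 ± 0.10, adjusted p = 0.012). Among the variants and chaperones of histones, the centromeric H3 variant cnp1 (0.26 ± 0.07, adjusted p = 0.024) and hat1, encoding a histone acetyltransferase (0.36 ± 0.10, adjusted p = 0.027), rose between 40 and 80 min. None of the 14 chaperones, 2 variants or other 7 regulators passed from 80 to 200 min in any step, by limma, where 1311, 717 and 932 genes in turn had an unadjusted p under 0.05. The steps of cnp1 and of pht1, the H2A.Z gene, lay between -0.22 and 0.26 after 40 min.

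Averaged over the untreated times, the mutants were close to WT in most members. In rad3, 0 of 9 histone genes passed the test against 9.92% of all genes (1393 genes had an unadjusted p under 0.05), with differences from -0.20 (hta1) to 0.16 (hhf1). In cds1 1 of 9 was lower, hht2 (-0.26 ± 0.08, adjusted p = 0.013), against 20.2% of all genes lower. In chk1 the same copy was lower (-0.25 ± 0.08, adjusted p = 0.04), against 8.63% of all genes. For ams2 the differences were -0.03 ± 0.14 in rad3, -0.34 ± 0.14 in cds1 (adjusted p = 0.051) and 0.11 ± 0.14 in chk1. The one in cds1 passed in a fit of single arrays with a replicate block (adjusted p = 0.00555) and with the second repeats alone (-0.408, adjusted p = 0.0296). These counts turned on the array repeats: with the second repeats alone 4, 5 and 4 histone genes were lower in rad3, cds1 and chk1, and with the first alone 0 were lower in each and 2 were higher in rad3. With the first repeats alone the hht2 differences were 0.019 in cds1 and 0.030 in chk1.

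With HU no early change was detected. At 40 and 80 min 0 genes of all 4927 passed the test in either pair of strains (0% called). The numbers with an unadjusted p under 0.05 were 275 and 294 in WT with chk1 and 550 and 199 in rad3 with cds1. For hta1 the differences at 40 min were 0.04 ± 0.18 in WT with chk1 and 0.35 ± 0.18 in rad3 with cds1. Thus the early rise of ams2 also ran its course in HU, to 0.44 (WT), 0.08 (rad3), -0.03 (cds1) and 0.89 (chk1) at 80 min.

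At 120 min, the time of the untreated peak, the histone genes had risen in HU as well. The level of hta1 in HU was 1.25 in WT, 1.01 in rad3 and 1.29 in cds1. All 9 histone genes of WT lay below their untreated level, by 0.28 (hht3) to 0.69 (hhf2), yet 0 of 9 passed the test (0.325% of all genes did, and 415 had an unadjusted p under 0.05). In rad3 and cds1 the differences ran from -0.56 ± 0.17 (htb1, adjusted p = 0.18) to 0.05, also with 0 of 9 called (background 0.609%, 529 genes with an unadjusted p under 0.05). Only ams2 passed among the members, with arrays at 1.59 and 2.16 in WT with HU against 0.50 and 0.76 untreated. The difference was 1.25 ± 0.20 (adjusted p = 0.023, against 0.223% of all genes higher), but it rested on WT alone with an error taken from the other strains and times, and without the chk1 strain its adjusted p was 0.0563. In rad3 and cds1 it was 0.13 ± 0.14. The difference between the pairs was -1.11 ± 0.24 for ams2 (adjusted p = 0.64, with 0% of all genes called). In a fit of single arrays with a replicate block the same difference passed (adjusted p = 0.00501). That fit also called htb1, hht1, hht2 and hhf2 lower with HU in WT, and htb1 lower in rad3 and cds1. The calls at this time thus depend on the fit.

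The arms parted at 160 min. In WT hta1 was at 0.93 and 1.96 on the HU arrays and at -0.68 and 0.35 on the untreated ones, and in chk1 at 1.26 on both against -1.20 and -1.21. HU and untreated arrays of these strains did not overlap for any member but hht2, and the share of all genes without overlap was not computed. In WT with chk1 8 of 9 histone genes were higher with HU, against 9.88% of all genes, from 1.24 ± 0.16 (hht3) to 2.43 ± 0.20 (hhf1), with hta1 at 2.04 ± 0.18 (4.10-fold, adjusted p = 1.6e-06). The exception was hht2, with 0.12 in WT and 0.12 in chk1 (0.12 ± 0.10, 95% interval -0.10 to 0.34, adjusted p = 0.44). The increase of ams2 was larger, 3.29 in WT and 3.36 in chk1 (3.33 ± 0.14, 10.02-fold, adjusted p = 1.3e-09). Without the chk1 strain the same 8 histone genes were higher, from 1.02 (hht3) to 1.96 (hhf3), and ams2 by 3.29.

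In rad3 and cds1 the histone genes were also higher with HU at 160 min, by less. For hta1 the levels were 0.96 with HU against -0.04 untreated in rad3, and 0.95 against -0.09 in cds1, a difference of 1.02 ± 0.18 (2.03-fold, adjusted p = 0.00046). All 9 histone genes passed, against 21.2% of all genes higher, from 0.27 ± 0.10 (hht2, adjusted p = 0.045) to 1.34 ± 0.17 (hhf3, adjusted p = 2.6e-05). The hht2 call did not hold up. It was lost with quantile normalization (0.194, adjusted p = 0.163) and with centring on the array median (0.248, adjusted p = 0.0581). Either array repeat alone (0.321 and 0.227) and the omission of any single strain also removed it. The call of htb1 was lost without cds1 (0.553). For ams2 the levels with HU were -0.34 in rad3 and -0.60 in cds1, against -0.79 and -1.33 untreated, a difference of 0.60 ± 0.14 (adjusted p = 0.004), which without cds1 was 0.46 (adjusted p = 0.070). So in these mutants ams2 was below the reference at 160 min in HU while 8 of the 9 histone genes were above it in both strains, the lowest being hht2 in cds1 (0.36), and htb1 was at 0.11 in rad3 and -0.0017 in cds1.

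**Figure D3:**
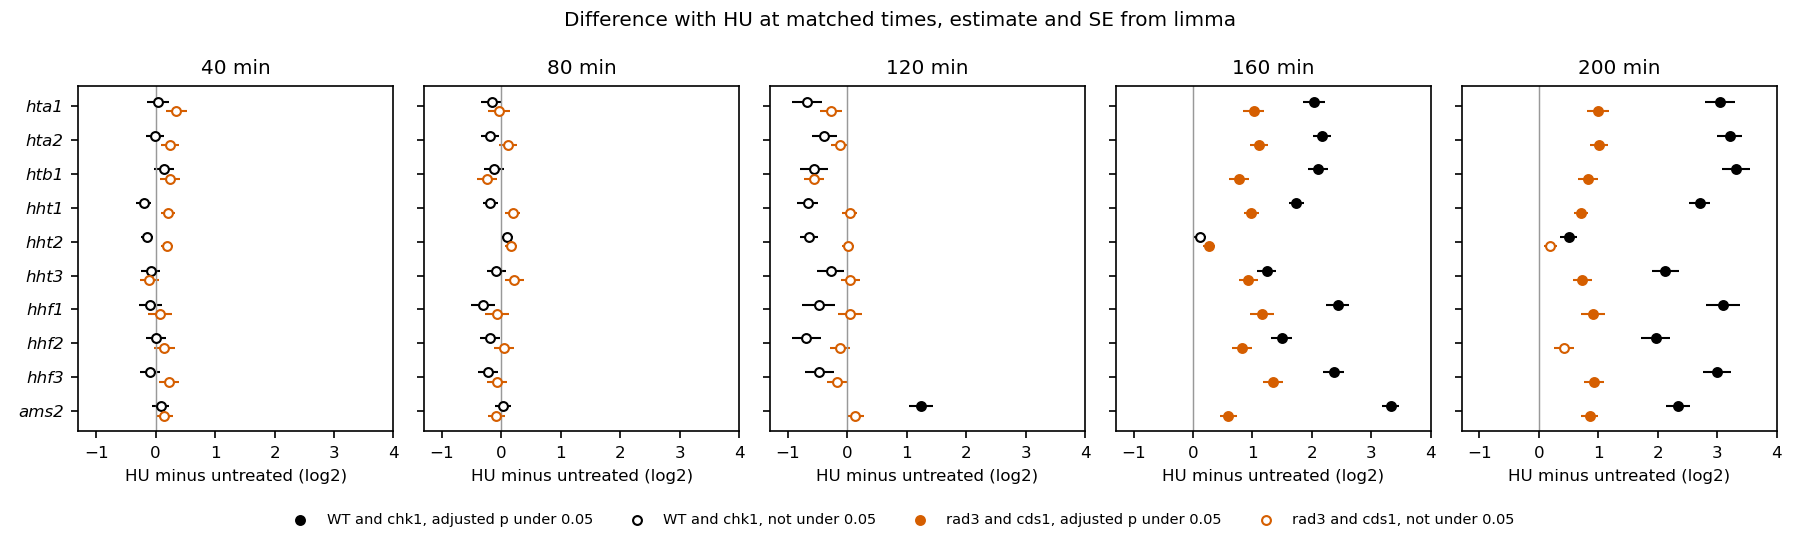
Difference with HU minus untreated on the log2 scale (horizontal axis) for each gene (rows) at 40, 80, 120, 160 and 200 min (panels). Points are limma estimates with their SE, black for WT with chk1 (WT alone at 120 and 200 min) and orange for rad3 with cds1, and filled points have an adjusted p under 0.05. At 160 and 200 min the black points lie to the right of the orange ones for the histone genes other than hht2, and for ams2.

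At 200 min the gap to the untreated culture was widest in WT. The level of hta1 with HU was 1.43 and 1.90 on the arrays of WT, against -1.62 and -1.14 untreated. It was 0.19 in rad3 (untreated -1.15) and -0.58 in cds1 (untreated -1.23). In WT 9 of 9 histone genes were higher with HU, against 5.87% of all genes, with 8 of them between 1.97 (hhf2) and 3.31 (htb1, 9.95-fold). The copy hht2 was 0.50 ± 0.14 higher (adjusted p = 0.035), and without the chk1 strain, which enters the error, its adjusted p was 0.0706. The increase of ams2 was 2.34 ± 0.20 (adjusted p = 3.5e-06). In rad3 and cds1 7 of 9 were higher, against 17.0% of all genes, by 0.71 (hht1) to 1.01 (hta2), and ams2 by 0.86 ± 0.14 (adjusted p = 0.0003). Those not called were the adjacent pair hht2 (0.20 ± 0.10, adjusted p = 0.15) and hhf2 (0.42 ± 0.17, adjusted p = 0.064). Without rad3 the count was 3 of 9, and ams2 was 0.47 higher (adjusted p = 0.052).

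The difference between the pairs of strains was tested itself. At 160 min the HU difference was smaller in rad3 and cds1 than in WT and chk1 for 6 of 9 histone genes, against 2.11% of all genes, namely hta1, hta2, htb1, hht1, hhf1 and hhf3, by 0.76 (hht1) to 1.32 (htb1). The remaining 3 gave -0.66 ± 0.24 (hhf2, adjusted p = 0.12), -0.32 (hht3) and 0.15 (hht2, 95% interval -0.15 to 0.46). This call depended on chk1: the untreated hta1 of chk1 was lowest at 160 min (-1.21 against -0.16 to -0.04 in the other strains), its HU difference was larger than that of WT (2.47 against 1.61), and without the chk1 strain 0 of 9 were called, with hta1 at -0.59 (adjusted p = 0.33). It was 1 without rad3 and 2 without cds1. For ams2 the difference of -2.73 ± 0.20 (adjusted p = 3.3e-06) was -2.695 without chk1 (adjusted p = 0.0015).

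At 200 min, with WT alone on one side, 8 of 9 histone genes had a smaller HU difference in rad3 and cds1, against 0.934% of all genes. The gaps ran from -1.39 ± 0.28 (hht3, adjusted p = 0.021) to -2.49 ± 0.29 (htb1, adjusted p = 0.00037), and hta1 gave -2.05 ± 0.31 (adjusted p = 0.0038). The exception was again hht2 (-0.31 ± 0.18, adjusted p = 0.42). For ams2 the gap was -1.48 ± 0.24 (adjusted p = 0.0062). The count was 7 to 8 without rad3, cds1 or chk1 in turn, and 2 with quantile normalization, where ams2 gave -1.03 (adjusted p = 0.10).

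Steps between times within HU were tested as well. With the conditions left out, 120 and 200 min are WT alone, and chk1 enters at 80 and 160 min. From WT with chk1 at 80 min to WT at 120 min 8 of 9 histone genes rose (0.913% of all genes did), with hht2 at 0.38 ± 0.16 (adjusted p = 0.23), and 9 of 9 rose in rad3 and cds1 (1.54% of all genes). In this step ams2 went on rising to its level in WT (1.24 ± 0.28, adjusted p = 0.024, or 0.059 without rad3 or without cds1, which enter the error), where 80 to 120 min without HU had brought 0.19. From WT at 120 min to WT with chk1 at 160 min, and from there to WT at 200 min, 0 members passed (2.42% and 0.203% of all genes did, and 715 and 628 had an unadjusted p under 0.05). The mean of 8 histone genes without hht2 in WT with HU was 1.21 at 120 min, 1.18 at 160 min and 1.31 at 200 min, where untreated it was 1.74, -0.41 and -1.50. Values of single genes lay to either side of this mean, with no step called. In WT with HU htb1 was at 0.54, 0.94 and 1.55 at these times, with steps of 0.33 ± 0.37 (adjusted p = 0.75) and 0.67 ± 0.37 (adjusted p = 0.47), and hhf2 was at 0.90, 0.35 and 0.43.

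In rad3 and cds1 ams2 and the histone genes were followed through the same steps, and ams2 was not tested against the histone genes. From 120 to 160 min in HU ams2 fell by 1.04 ± 0.23 (adjusted p = 0.0032, against 7.43% of all genes), together with 13 of 13 other MBF targets (median -1.37, tos4 -2.16, cdc22 -2.11). Of the histone genes 1 fell, hht2 (-0.44 ± 0.13, adjusted p = 0.02), its adjacent gene hhf2 had -0.80 ± 0.28 (adjusted p = 0.054), and the other 7 lay between -0.49 and -0.11. Without rad3 or without cds1 the count of histone genes was 0, and ams2 gave -0.83 (adjusted p = 0.18) and -1.25 (adjusted p = 0.078). The mean of the 8 was still 0.91 in rad3 and 0.82 in cds1 at 160 min.

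From 160 to 200 min in HU 7 of 9 histone genes fell in these mutants, against 1.44% of all genes, and ams2 rose. The falls ran from -1.06 ± 0.19 (hht3) to -1.54 ± 0.30 (hhf3), with hta1 at -1.15 ± 0.28 (adjusted p = 0.024), and htb1 (-0.74 ± 0.30) and hht2 (-0.41 ± 0.13) did not pass. The mean of the 8 was 0.01 in rad3 and -0.68 in cds1 at 200 min. Meanwhile ams2 rose by 1.04 ± 0.23 (adjusted p = 0.014, against 1.48% of all genes), to 0.95 in rad3 and 0.20 in cds1. Both calls were lost without rad3 (hta1 -1.54, adjusted p = 0.15, and ams2 0.80, adjusted p = 0.36) and without cds1 (hta1 -0.77, adjusted p = 0.60, and ams2 1.29, adjusted p = 0.17), where 1 culture was left, and with quantile normalization (0 of 9, ams2 adjusted p = 0.10).

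The levels held in HU were also set against the untreated peak at 120 min, which is WT alone. For hhf2 the WT arrays read 1.62 and 1.55 at the untreated peak, 0.41 and 0.29 with HU at 160 min, and 0.45 and 0.41 with HU at 200 min. For hht2 they read 0.96 and 1.45, then 0.17 and 0.47, then 0.31 and 0.39. The HU arrays of this adjacent pair lay below both untreated arrays at both HU times. The same held for hht1, hhf1 and hht3. Their lowest untreated arrays were 1.69, 1.78 and 1.34, and their highest HU arrays 1.64, 1.75 and 1.32. These margins were smaller than the median gap between repeat arrays of WT (0.46, 0.411 and 0.638 in the same order), so the separation of these genes carries little weight. No such separation was seen for hta1, hta2, hhf3 or htb1. The htb1 arrays with HU at 200 min lay above its untreated ones (1.48 and 1.62 against 1.10 and 1.11). The share of all genes with such a separation was not computed.

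With HU at 160 min 2 of 9 histone genes were below the untreated peak, against 5.20% of all genes, and they were this pair, hht2 (-0.89 ± 0.16, adjusted p = 0.00091) and hhf2 (-1.16 ± 0.35, adjusted p = 0.039). The other 7 lay between -0.66 (hht3) and -0.23 (htb1), with intervals that for hta1 ran from -1.26 to 0.16, so a smaller shortfall in them was not excluded by these data. At 200 min hht2 was lower by a similar amount (-0.85 ± 0.18, adjusted p = 0.0027, against 9.40% of all genes), and hhf2 was at the threshold (-1.16 ± 0.40, adjusted p = 0.05). Without the chk1 strain hht2 remained lower at both times (adjusted p of 0.0185 and 0.0105) and hhf2 did not pass (adjusted p of 0.0795 and 0.0502). The direct comparison of the pair with the other copies was not tested. In contrast ams2 exceeded its untreated 120 min level, by 1.40 ± 0.28 at 160 min (2.65-fold, adjusted p = 0.0026, against 4.95% of all genes higher) and by 1.40 ± 0.32 at 200 min (adjusted p = 0.005, against 6.70%). Without the chk1 strain the excess at 160 min was 1.61. The excess at 200 min was 0.96 with quantile normalization (adjusted p = 0.083).

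**Figure D4:**
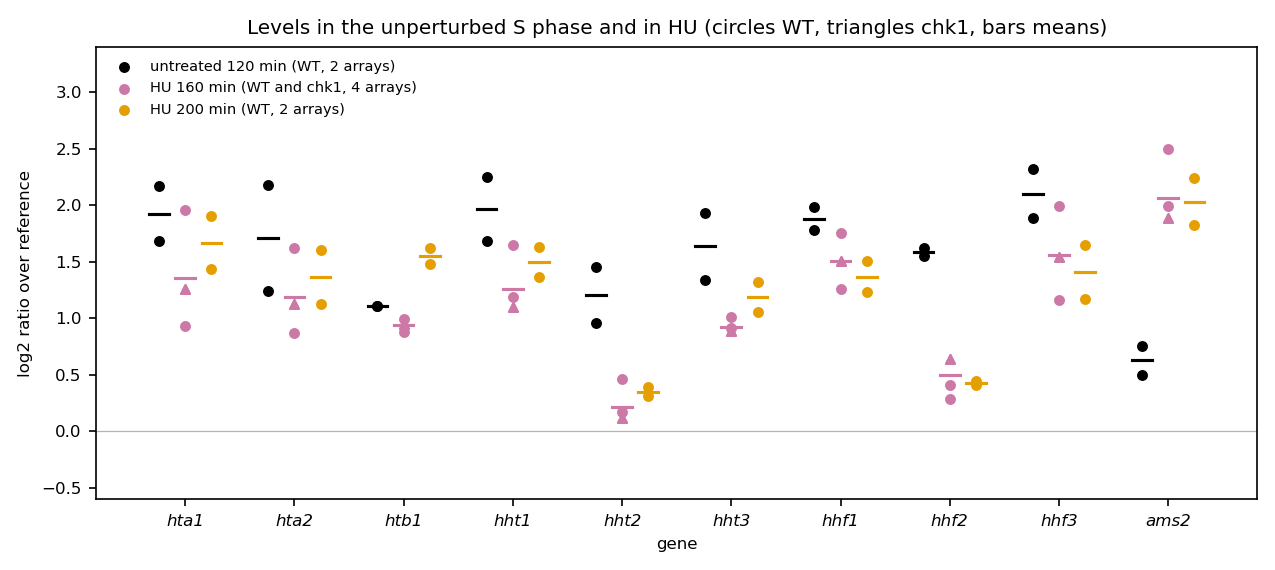
Log2 ratio over the reference (vertical axis) of each gene (horizontal axis) on single arrays, untreated at 120 min (black, WT), with HU at 160 min (pink, WT circles and chk1 triangles) and with HU at 200 min (orange, WT). Bars are means, and the chk1 triangles of both arrays coincide. The HU points of hht2 and hhf2 lie below their black points, while those of ams2 lie above. The highest HU points of hht1, hht3 and hhf1 lie only just below their black points.

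Genes outside the members with the most similar course were sought over the 37 conditions after 0 min, by Pearson r as a description. The members share arrays and the common wave, and 8 histone genes correlated with each other at 0.939 to 0.997, hht2 with them at 0.802 to 0.898, and ams2 with the 9 at 0.448 (hht2) to 0.756 (htb1). Closest to ams2 were the MBF targets cdc18 (0.972), tos4 (0.965), cdt2 (0.964), nrm1 (0.955) and cdc22 (0.954). No gene outside the members came as close to hta1, for which sec22 led (0.821), then rpp40 (0.803), SPOM_SPBC1348.08C (0.795), sib3 (0.794) and jmj1 (0.785). For hht2 they were cyp4 (0.817), sib3 (0.796), erj5 (0.752), fra1 (0.742) and meu7 (0.725).

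Under HU the MBF targets were higher together with ams2, while few regulators, variants and chaperones passed the test. In WT and chk1 at 160 min the 13 other MBF targets were all higher (median 3.23, led by cdc22 at 4.63 and cdc18 at 4.23), as ams2 was at 3.33. The centromeric H3 variant cnp1 was 0.49 ± 0.14 higher (adjusted p = 0.024) and 0.94 ± 0.20 higher at 200 min (adjusted p = 0.0072). Of the 8 regulators pof3 was lower (-0.58 ± 0.12, adjusted p = 0.0029), as was hip1, a subunit of the HIRA histone chaperone (-0.34 ± 0.10, adjusted p = 0.034). Of the 14 chaperones nap1 (-0.36 ± 0.10) and pcf1, a subunit of the chromatin assembly factor CAF-1 (-0.37 ± 0.12), were lower and 0 were higher. Of all genes, 10.5% were lower in these strains at 160 min. For pof3 the difference between the pairs of strains was 0.77 ± 0.17 at 160 min (adjusted p = 0.016). The chk1 culture with HU at 160 min enters the 160 min values of these listed genes, which are not given without it.

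In rad3 and cds1 at 160 min 1 of 13 other MBF targets was higher (median 0.52) and at 200 min 6 of 13 (median 0.47). At 160 min 4 of 14 chaperones were lower, asf1 (-0.52 ± 0.14), nap1 (-0.45 ± 0.10), nap2 (-0.39 ± 0.13) and spt16 (-0.29 ± 0.09), at 200 min 5 of 14, led by nap1 (-0.60 ± 0.10, adjusted p = 0.00029), and 0 were higher at either time. The regulators hsk1 (0.35 ± 0.12) and slm9 (0.38 ± 0.10) were higher at 160 min, and hsk1 (-0.36 ± 0.12) and hip1 (-0.32 ± 0.10) lower at 200 min. In these strains 21.2% of all genes were higher and 17.2% lower at 160 min, and 17.0% higher and 18.9% lower at 200 min.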

How the data were processed

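The measurements were total RNA levels on 88 two-colour arrays. The authors deposited log2 ratios of sample (Cy5) over the common reference (Cy3), the direction being that of the dyes per the labels. That the scale is log2 follows from the values, 99.68% of which equal the log2 of a 3-decimal ratio to within 0.01 of a thousandth. How background, normalization, centring and spot filters were handled is not stated in the labels. Array medians ran from -0.23 to 0.05. Since array repeats were averaged before the tests, it is the number of cultures that limits the precision.

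Of 9858 probes, 9632 had 1 gene symbol in the platform annotation, 44 had several and 182 none, and 9582 were updated through RefSeq (ASM294v3). The 35 probes with values on under 80% of the arrays were dropped, and probes of a gene and array repeats of a condition were averaged. Samples were grouped by title.

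Tests used limma 3.58.1 (lmFit, eBayes) in R 4.3.3. P-values were adjusted by Benjamini-Hochberg across every gene measured, and genes under 0.05 were called. Untreated conditions were modelled by strain plus time (residual degrees of freedom 14). HU minus untreated of the same strain and time was fitted as pair of strains by time (8), and levels over all conditions as pair, arm and time with strain (17). The scripts were tested on simulated data. Replicate numbers were taken to mark array repeats, and whether equal numbers deviate together was checked: deviations of repeat 2 from repeat 1 correlated between conditions with a median of 0.70 (WT), 0.361 (rad3), 0.142 (cds1) and -0.008 (chk1), and the lowest was 0.438, -0.003, -0.078 and -0.072 in the same order, so equal numbers deviated together in every pair of conditions of WT and in part of those of rad3. Whether equal numbers in WT and rad3 mark separate cultures was not tested.

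The members, the pairs of strains, the lists and the tests were chosen with earlier results of these data known. All members were tested in every comparison, but not every value is printed. Also named are, of each list, up to 4 genes with the largest change, and for hta1, ams2 and hht2 the 5 most similar genes. Genes on which a list's count turns are also named. A planned search of promoters for motifs was not run, since no sequence was used here. The MBF target yox1 was not measured. Alternatives were quantile normalization, centring on the array median, each array repeat alone, arrays as samples with a replicate block, trended robust variance, complete probes, the chk1 arrays put back, each strain left out and the start left out.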

Additional observations from a re-analysis of the deposited data

Results flagged for a closer look

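In 3 of the 80 groups of 4 strains tested, 1 strain lay far from the other 3 by Dixon's criterion, and chance gives about 5% of groups. All 3 were chk1. Untreated ams2 at 200 min was 0.52 in chk1 against -0.31 to -0.27 in the other strains. With HU at 80 min hta1 was -0.59 in chk1 against -1.26 to -1.15. Untreated hta1 at 160 min was -1.21 in chk1 against -0.16 to -0.04. The cause of these gaps was not tested.

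The HU difference of rad3 and cds1 was smaller than that of WT and chk1 (at 200 min of WT alone) by limma's test of the difference itself. At 160 min the gaps were -1.02 (hta1), -1.06 (hta2), -1.32 (htb1), -0.76 (hht1), -1.27 (hhf1), -1.02 (hhf3) and -2.73 (ams2). At 200 min they were -2.05 (hta1), -2.20 (hta2), -2.49 (htb1), -1.99 (hht1), -1.39 (hht3), -2.19 (hhf1), -1.54 (hhf2), -2.07 (hhf3) and -1.48 (ams2). Those of the histone genes at 160 min were not called without the chk1 strain.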

How the results depend on the processing

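Over all members, tests and alternatives, 3475 values stayed on their side of the threshold (101 of them, never called, changed sign), 132 lost the call, 59 gained it and 4 changed sign where a call was made. The last were differences from WT on single repeats, with 0.544 and -0.674 for hta2 and 0.388 and -0.626 for hht3 in rad3 (first and second repeats), and 0.019 and -0.534 in cds1 and 0.030 and -0.539 in chk1 for hht2. The following are counts of histone genes of 9, and the cause of each change was not tested. For the rise from 40 to 80 min quantile normalization gave 3 in place of 7. For the fall from 160 to 200 min (4), quantile normalization gave 8, the replicate block 8, and leaving out WT 0, rad3 1, cds1 0 and chk1 8, with 2 to 3 on single repeats. Lower than WT without HU were 0 to 4 in rad3 (0 together, and 0 to 2 higher), 0 to 5 in cds1 (1) and 0 to 4 in chk1 (1) on single repeats, 0 in cds1 and chk1 with quantile normalization, and 0 in chk1 with its matching arrays put back or without the start. Lower with HU at 120 min in WT were 4 with the replicate block and 4 with the chk1 arrays back (0), and in rad3 and cds1 1 with the block (0). Higher at 200 min in rad3 and cds1 were 3 without rad3 (7). The gap between pairs at 160 min (6) gave 2 to 5 on single repeats, 1 without rad3, 2 without cds1 and 0 without chk1, and at 200 min (8) quantile normalization gave 2. Below the untreated peak at 160 min (2) were 1 with quantile normalization, 4 with the block, 4 with the chk1 arrays back, 1 without chk1 and 1 to 2 on single repeats. At 200 min (2) it was 1 with quantile normalization, centring, trended variance, complete probes, without chk1 or on single repeats. In HU from 120 to 160 min in rad3 and cds1 (1) it was 2 with quantile normalization, the block or the chk1 arrays back, 0 without rad3 or cds1, and 0 to 2 on single repeats. From 160 to 200 min (7) it was 0 with quantile normalization and without rad3 or cds1. For ams2 the block gave calls of cds1 minus WT (-0.343, adjusted p = 0.00555), of the gap between pairs at 120 min (-1.11, adjusted p = 0.00501) and of the rise from 80 to 120 min in HU in rad3 and cds1 (0.546, adjusted p = 0.0168). The block changed no other count by over 1.5 times.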
